A study of Mus musculus with 39 samples.

Results

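The mitosis and spindle genes were 43 of the 25219 genes in the deposited table, chosen by name and sorted by role into 8 groups. All 43 were found, and all 43 passed the filter on low values, a mean of at least 1 FPKM (fragments scaled by transcript length and by the sequencing total of the cell) over the clustered cells. They were measured in 39 single cells by full-length RNA sequencing. The cells were crypt epithelial cells of the small intestine of mice that carry both Lgr5-EGFP-Ires-CreERT2 and the reporter Rosa-lsl-tdTomato, in which Cre recombinase is made from the Lgr5 locus and tamoxifen lets it switch on tdTomato for good, so that Lgr5-expressing stem cells and their later progeny are marked. Tamoxifen was given 24 h before 10 Gy of total body irradiation (TBI), and tdTomato+ cells without the surface protein Sca1 were sorted 48 h after TBI. The authors called these cells Sca1- Lgr5-derivatives. Every cell was irradiated, and unirradiated cells were not analysed here. The authors' clustering on a signature of intestinal stem cell (ISC) genes split them into Cluster 1, with 22 cells, and Cluster 2, with 15, while that heat map did not show cells 9 and 79. None of the 43 members (0) belongs to the ISC signature. The labels name no animal for any cell, so the 39 cells count as 1 biological sample. No p-value was computed, and each ± is an SD over cells.

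Mitosis begins when the kinase Cdk1, bound to cyclin B, drives the cell out of G2. Condensins then compact the chromosomes, spindle microtubules attach to kinetochores built on the centromeres, and the spindle assembly checkpoint holds the cell until every chromosome is attached. Cdc20 then lets the anaphase-promoting complex destroy cyclin B and securin, the sister chromatids part and the cell divides. Most of these genes are transcribed late in the cell cycle, through promoter elements known as the CHR and the CCAAT box. In the crypt they are used by cycling stem cells and progenitors, whereas Paneth cells and mature villus cells do not divide. Irradiated crypt cells halt the cycle through p53 and its target Cdkn1a.

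The proximal promoters of 4 members are shown because many of the genes described below, though not all, hold the elements named above. They are the members with a TTTGAA match that followed the other members most closely across cells. Each line gives 120 bases before the RefSeq gene start and 40 from it, on GRCm38.p6. Capitals mark TTTGAA, the commonest form of the CHR, and CCAAT, each on either strand (TTCAAA and ATTGG on the other strand).
Smc2 (condensin subunit), chr4:52439101-52439260, plus strand: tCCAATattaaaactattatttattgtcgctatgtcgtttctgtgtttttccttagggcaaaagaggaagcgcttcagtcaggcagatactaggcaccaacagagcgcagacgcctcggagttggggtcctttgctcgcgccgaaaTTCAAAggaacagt
Ube2c (ubiquitin-conjugating enzyme of the anaphase-promoting complex), chr2:164769809-164769968, plus strand: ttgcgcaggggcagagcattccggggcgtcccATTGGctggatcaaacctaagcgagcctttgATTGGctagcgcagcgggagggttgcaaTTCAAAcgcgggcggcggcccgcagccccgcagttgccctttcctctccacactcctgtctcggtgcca
Mki67 (Ki-67, which coats mitotic chromosomes), chr7:135716340-135716499, minus strand: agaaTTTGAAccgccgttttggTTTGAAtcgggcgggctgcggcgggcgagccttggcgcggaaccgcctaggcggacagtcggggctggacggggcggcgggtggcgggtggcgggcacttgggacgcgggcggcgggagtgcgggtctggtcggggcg
Plk1 (polo-like kinase), chr7:122159315-122159474, plus strand: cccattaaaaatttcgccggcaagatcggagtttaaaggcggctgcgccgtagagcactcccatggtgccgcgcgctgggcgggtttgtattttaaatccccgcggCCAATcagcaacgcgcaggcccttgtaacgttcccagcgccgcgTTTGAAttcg
RefSeq held a promoter of 300 bases (250 before and 50 from the start) for 36 of the 43 members. TTTGAA was in 26 of these 36 (72.2%) and in 2978 of the 18393 promoters of all genes (16.2%). CCAAT was in 27 members (75%) and in 39.6% of all promoters, and both were in 23 members (63.9%) and in 7.06% of all promoters. A window from 30 before to 44 after the start, chosen after the positions were seen, held a TTTGAA in 22 members (61.1%) and in 3.06% of all promoters. The form TTCGAA was rare, in 3 members (8.33%) and 1.88% of all promoters. Ccnb1, which encodes cyclin B1, had CCAAT but no TTTGAA in its window, and Birc5, Mad2l1, Ncaph, Nuf2, Nusap1 and Pttg1 had neither. The RefSeq start was the deposited gene start for 29 of the 36 members and lay 247 bases from it for Mad2l1, 267 for Pttg1 and 3852 for Kif2c, so these windows may not belong to the transcripts measured. These are matches of letters, and binding was not measured.

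The cells differed widely in how much of the mitotic program they expressed. A gene was called detected at 1 FPKM or more, and a cell was given a full program with at least 33 of the 43 members detected (75%), a low one with fewer than 11 (25%) and a partial one between these. A full program was present in 12 of 39 cells (30.8%, exact 95% binomial interval 17.02 to 47.6%), a partial one in 19 (48.7%, 32.4 to 65.2%) and a low one in 8 (20.5%, 9.30 to 36.5%). These intervals cover counting error only. The 12 full cells detected 33 to 42 members (median 38.5), the 19 partial cells 12 to 31 (median 27) and the 8 low cells 3 to 9 (median 5.5). The classes are ranges cut at fixed limits, and the counts did not break clearly at either. Near the lower limit, the 9 members of the highest low cells were followed by 12 in cell 30 and 18 in cell 86, both of Cluster 1, and by 22 in the next cells. Within 3 members of the limit for a full program lay 5 cells, with 34 members in cell 29 and 33 in cell 65 just inside it, and 31 in cells 14 and 17 and 30 in cell 46 just outside it. At the lower limit lay 3 cells, with 12 members in cell 30 inside it and 9 in cells 5 and 48 outside it.

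**Figure D1:**
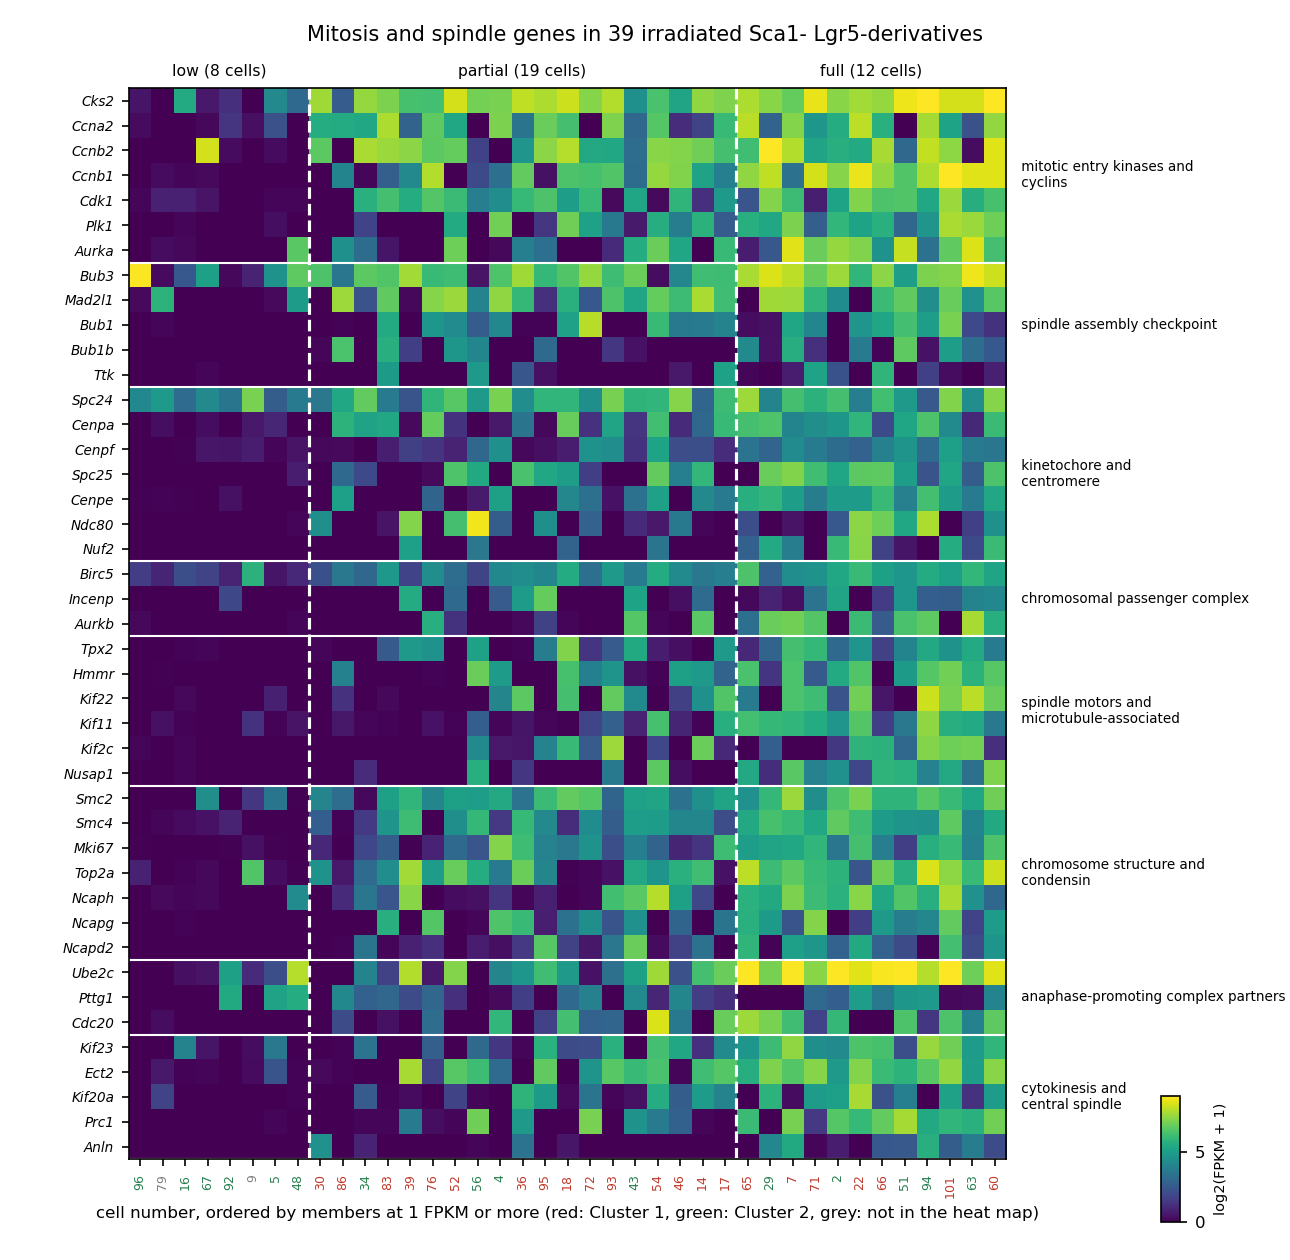
Expression of the 43 members (rows, grouped by role) in the 39 cells (columns, ordered by the number of members at 1 FPKM or more), as log2(FPKM + 1). Dashed lines part the 8 low, 19 partial and 12 full cells. The low cells are dark in most rows other than Spc24, Birc5, Bub3, Cks2, Ube2c, Pttg1 and Smc2. Some other rows hold a single bright low cell, such as Ccnb2 in cell 67. The full cells are bright in most rows whichever cluster they belong to (red and green cell numbers).

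Full programs were found in both clusters, and low programs were not found in Cluster 1. Cluster 1 held 7 full cells of 22 (31.8%, 13.9 to 54.9%) and Cluster 2 held 5 of 15 (33.3%, 11.8 to 61.6%), so the shares differed by far less than their intervals. With any value above 0 FPKM counted as detected the shares were 68.2% and 46.7%, and with the limit for a full program at 2/3 of the members 59.1% and 40%, so the near-equality depended on these settings. The remaining 15 cells of Cluster 1 were partial (68.2%), and none (0 of 22, upper bound 15.4%) was low, although 1 Cluster 1 cell was low with detection at 5 FPKM and 1 with limits of 2/3 and 1/3 of the members. Cluster 2 had 4 partial cells (26.7%) and 6 low cells (40%, 16.3 to 67.7%). Its low cells numbered 3 after thinning to 390000 estimated counts, with 1 read counted as detection, and 0 with any value above 0 FPKM, where Cluster 1 also had 0. Cells 9 and 79 were both low, with 6 and 3 members detected. The full cells of Cluster 1 included 7, 22, 60, 65, 66 and 71 and the cell with the highest Ccnb1 and Cdk1 of all, and those of Cluster 2 were 2, 29, 51, 63 and 94. Full cells, which the rule holds to at least 33 members, detected 33 to 42 (median 38) in Cluster 1 and 34 to 40 (median 39) in Cluster 2.

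**Figure D2:**
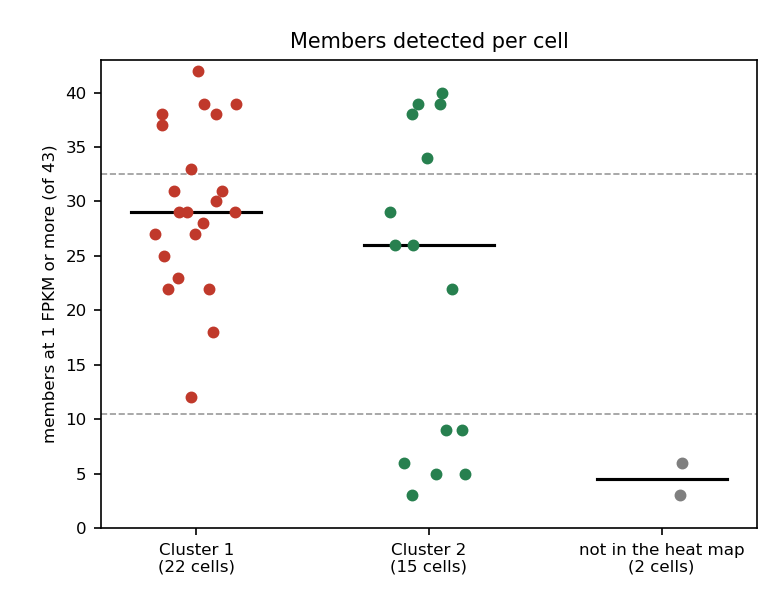
Members at 1 FPKM or more in each cell (points) by the authors' cluster, with the median (bar) and the limits of a full and a low program (dashed lines). Cluster 1 runs from 12 to 42 members around a median of 29, whereas Cluster 2 falls apart into 5 full, 4 partial and 6 low cells.

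Depth and cell identity moved with these classes in part. Estimated counts per cell ran from 398418 to 3903971 (median 3089188), with 398418 in cell 9, 661255 in cell 43 and at least 1466913 in every other cell. Genes detected numbered 3785 to 5779 (median 4896) in full cells, 3204 to 5242 (median 4614) in partial cells and 2287 to 4574 (median 3337.5) in low cells. Over the 39 cells, the score of a cell, the mean log2(FPKM + 1) of the 43 members, followed the number of other genes detected (Spearman rho = 0.65) more than the estimated counts (rho = 0.23). These are descriptions over single-cell libraries that count as 1 biological sample, and the part of gene detection in the classes was not tested. Epcam, a marker of epithelium, was at 19.8 to 699 FPKM in the 39 cells, and all 8 stromal and endothelial markers were listed at 0 in every cell. Of the 8 immune markers, Cd74 was detected in 20 cells, up to 613 FPKM in cell 51 (full), while Ptprc (CD45) was detected in 0. The sum of the immune markers reached 725 FPKM in cell 51 and 529 FPKM in cell 16 (low), and its part in the classes was not tested. Ly6a, which encodes Sca1, was at 0 in every Cluster 1 cell but reached 477 FPKM in cell 5 (low) and 509 FPKM in cell 34 (partial), both of Cluster 2. No 2 cells had identical values.

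Some low cells carried strong markers of mature cell types. Cell 96 held 5167 FPKM summed over 6 tuft cell markers, cell 79 held 41011 FPKM over 8 enterocyte markers and 2163 FPKM over the tuft markers, and cell 5 held 26749 FPKM over 7 goblet cell markers, although Muc2, the main goblet mucin, was at 0 in it. Outside the low cells, the tuft sum stayed at or below 12.7 FPKM. The part of these markers in the low programs was not tested. Such markers were not confined to low programs, because cell 63, with 40 members detected, held 41329 FPKM of goblet markers, 387 FPKM of Muc2 and 1498 FPKM of Lyz1 (lysozyme of Paneth cells). Cell 56, a partial cell, had the highest sum over 6 Paneth markers, 12674 FPKM. Capture sites had been inspected by microscope and no doublet caller was run, so whether cell 63 was a pair of cells was not tested. Without it, 11 cells had a full program and the score still differed by 1.19 between the clusters.

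Among the mitotic entry kinases and cyclins, the B and A cyclins showed the widest gap between the clusters in mean log2 value. Ccnb1 ranged from 0 to 510 FPKM in Cluster 1 (median 91.4, detected in 19 of 22 cells) and from 0 to 372 FPKM in Cluster 2 (median 3.06, 8 of 15). Ccnb2, the cyclin B2 gene, ranged from 0 to 373 FPKM in Cluster 1 (median 124, 21 of 22) and from 0 to 664 FPKM in Cluster 2 (median 2.43, 8 of 15). Ccna2, encoding cyclin A2 of S and G2 phase, ranged from 0 to 277 FPKM (median 59.3, 21 of 22) and from 0 to 222 FPKM (median 3.69, 9 of 15). The ranges overlapped for all 3 cyclins, and Cluster 2 held cells with high, intermediate and hardly any transcript, such as 372, 8.17 and 0 FPKM of Ccnb1 in cells 63, 43 and 5. On the log2(FPKM + 1) scale the difference in means was 3.29 for Ccnb2 (pooled SD 2.69) and 2.93 for Ccna2 (pooled SD 2.48), the only members of the 43 whose difference exceeded the pooled SD, and 2.41 for Ccnb1 (pooled SD 3.14). On the ratio of mean FPKM the order changed, with a log2 ratio of 0.34 for Ccnb2, 1.49 for Ccna2 and 0.85 for Ccnb1.

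In mean log2 value the kinases themselves were less distinct. By log2 ratio of mean FPKM, Cdk1 (0.72) and Plk1 (0.50) lay above Ccnb2 (0.34), though below Ccna2 and Ccnb1. Cdk1 ranged from 0 to 201 FPKM in Cluster 1 (median 61.0, 17 of 22 cells) and from 0 to 162 FPKM in Cluster 2 (median 20.2, 9 of 15), a difference of 1.04 in mean log2 value (pooled SD 2.75). Plk1, which promotes entry into and passage through mitosis, ranged from 0 to 229 FPKM (median 23.5, 16 of 22) and from 0 to 201 FPKM (median 0.57, 7 of 15), a difference of 1.27 (pooled SD 2.84). Aurka, the centrosome kinase Aurora A, ranged from 0 to 388 FPKM (median 17.9, 14 of 22) and from 0 to 367 FPKM (median 4.45, 8 of 15), a difference of 0.58 (pooled SD 3.23). For Aurka the direction depended on the scale, since its log2 ratio of mean FPKM was -0.22. Cks2, a small subunit that binds Cdk1 complexes, had the highest mean of all members (179 ± 159 FPKM, n = 39) and was detected in all 22 Cluster 1 cells and in 13 of 15 Cluster 2 cells. Cdk1 and Ccnb1 were detected together in 23 of 39 cells, Cdk1 alone in 3, Ccnb1 alone in 4 and neither in 9. All 8 low cells lacked both, and 11 of the 12 full cells had both. The exception was cell 71, with 341 FPKM of Ccnb1 and 0.67 FPKM of Cdk1. Ccnb1, Plk1 and Aurka together were detected in 15 cells, 11 of the 12 full and 4 of the 19 partial.

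Among the spindle assembly checkpoint genes, Bub3 was detected in 34 of 39 cells and Ttk in few. Bub3, which brings checkpoint kinases to kinetochores, ranged from 0.23 to 315 FPKM in Cluster 1 (median 90.3, 21 of 22) and from 0.15 to 494 FPKM in Cluster 2 (median 106, 13 of 15). It was higher in Cluster 1 by 0.59 in mean log2 value (pooled SD 2.24) but lower by ratio of mean FPKM (log2 ratio -0.26). Its highest value was in cell 96, a low cell with 3 members detected. Ttk, the checkpoint kinase Mps1, was detected in only 8 of 39 cells, the fewest of any member, 4 full and 4 partial. Bub1 was detected in 15 of 22 and 5 of 15 cells, Bub1b in 12 and 3, and Mad2l1 in 18 and 10. As a group the checkpoint had the smallest share of detections in full cells, 71.7%, and the groups of the 8 roles otherwise lay between 80.6% and 96.4%.

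The kinetochore genes included the most widely detected member. Spc24, a subunit of the NDC80 complex that grips microtubules, was detected in all 39 cells, at 4.02 to 203 FPKM (median 60.03) in Cluster 1 and 4.78 to 144 FPKM (median 18.4) in Cluster 2, and at 5.35 to 146 FPKM in the 8 low cells. Its partners were absent from the low cells, in which Spc25, Ndc80 and Nuf2 were each detected in 0 of 8. All 4 subunits were detected in 6 cells, 5 full and 1 partial. Cenpf, a large outer kinetochore protein and the member of this group with the lowest mean (7.45 ± 9.74 FPKM, n = 39), was at 6.11 to 32.8 FPKM in full cells and below 1 FPKM in every low cell.

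Of the 3 members from the chromosomal passenger complex, which corrects faulty attachments, Birc5 was common and Aurkb and Incenp were not. Birc5, encoding survivin, ranged from 2.51 to 88.0 FPKM in Cluster 1 (median 20.3, 22 of 22) and from 0.43 to 61.9 FPKM in Cluster 2 (median 6.04, 13 of 15), a difference of 1.37 (pooled SD 1.45). Aurkb, the catalytic Aurora B, ranged from 0 to 135 FPKM (median 0.13, 10 of 22) and from 0 to 226 FPKM (median 0, 5 of 15), a difference of -0.18 (pooled SD 3.02). By program, which its own detection helped to set, it was detected in 10 of 12 full, 5 of 19 partial and 0 of 8 low cells. Incenp, the scaffold, had the lowest mean of the group (9.50 ± 21.2 FPKM) and differed by -0.16 (pooled SD 2.16). These 3 members were detected together in 10 cells, 6 full and 4 partial.

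The spindle motors and microtubule-associated genes build and focus the spindle. Their members, which helped to set the classes, were detected in 90.3% of gene and cell pairs in full cells, 40.4% in partial cells and 2.08% in low cells. Kif11, Nusap1 and Tpx2 were detected in all 12 full cells, against 5, 5 and 10 of 19 partial cells. Kif22, a chromosome-arm motor and the group's highest by mean (41.5 ± 74.9 FPKM), ranged from 0 to 142 FPKM in Cluster 1 (median 7.38, 13 of 22) and from 0 to 321 FPKM in Cluster 2 (median 0, 5 of 15). Tpx2, which activates Aurora A on the spindle and was the lowest by mean (17.05 ± 30.3 FPKM), ranged from 0 to 158 FPKM (median 4.95) and from 0 to 44.8 FPKM (median 0.08). Neither difference, 1.41 for Kif22 and 0.67 for Tpx2, exceeded its pooled SD (3.07 and 2.40).

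The chromosome structure and condensin genes were the most completely detected in full cells (96.4%). Mki67 ranged from 0.02 to 88.8 FPKM in Cluster 1 (median 12.3, 18 of 22) and from 0 to 158 FPKM in Cluster 2 (median 2.76, 9 of 15), a difference of 1.20 (pooled SD 2.31). By program it was at 2.16 to 88.8 FPKM in full cells (median 38.3), at 0.02 to 158 FPKM in partial cells (median 5.29) and at no more than 0.33 FPKM in low cells. Top2a, the topoisomerase that untangles sister chromatids, ranged from 0.05 to 315 FPKM in Cluster 1 (median 40.7, 17 of 22) and from 0 to 362 FPKM in Cluster 2 (median 11.9, 9 of 15), a difference of 1.30 (pooled SD 2.87). Mki67 and Top2a were detected together in 23 cells, each alone in 4 and neither in 8. Mki67 was detected in 12 of 12 full, 15 of 19 partial and 0 of 8 low cells, and Top2a in 12, 14 and 1. Detection of either gene, which helped to set the classes, thus did not tell full from partial cells. Smc2, whose promoter is printed above, was detected in 22 of 22 Cluster 1 cells and 10 of 15 Cluster 2 cells, and Ncapd2, lowest of the group by mean (13.97 ± 28.8 FPKM), in 14 and 5. All 5 condensin subunits were detected in 12 cells, 9 full and 3 partial, of which 9 were in Cluster 1 and 3 in Cluster 2.

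Among the partners of the anaphase-promoting complex, Ube2c had the highest mean and Pttg1 the lowest. Ube2c was at 127 to 618 FPKM in the 12 full cells (median 425), at 0 to 247 FPKM in the partial cells (median 15.98) and at 0 to 255 FPKM in the low cells (median 0.74). Full and partial cells thus overlapped only in their outer values, and the highest low cell was cell 48. Cdc20, the activator, ranged from 0 to 354 FPKM in Cluster 1 (median 4.74, 14 of 22) and from 0 to 145 FPKM in Cluster 2 (median 0, 6 of 15), a difference of 1.01 (pooled SD 2.96). Pttg1, encoding securin, had a mean of 9.11 ± 12.9 FPKM, was detected in 7 of 12 full, 13 of 19 partial and 3 of 8 low cells, and had the lowest correlation of any member with the mean of the others (rho = 0.11 over 39 cells). Its highest value, 46.9 FPKM, was in cell 48, a low cell. It was lower in Cluster 1 by mean log2 value (difference -0.31, pooled SD 1.996).

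Of the cytokinesis genes, Ect2, the exchange factor that starts the contractile ring, had the highest mean (57.5 ± 64.8 FPKM). It was at 28.3 to 187 FPKM in full cells, at 0 to 227 FPKM in partial cells and at 0 to 4.09 FPKM in low cells. Anln, the ring protein anillin, had the lowest mean of all 43 members (4.51 ± 11.2 FPKM) and was detected in 8 full, 2 partial and 0 low cells, in Cluster 1 in 6 of 22 and in Cluster 2 in 4 of 15. Its difference was -0.22 (pooled SD 1.77). Kif23 of the central spindle was detected in all 12 full cells, and Kif20a and Prc1 in 9 and 11 of them.

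**Figure D3:**
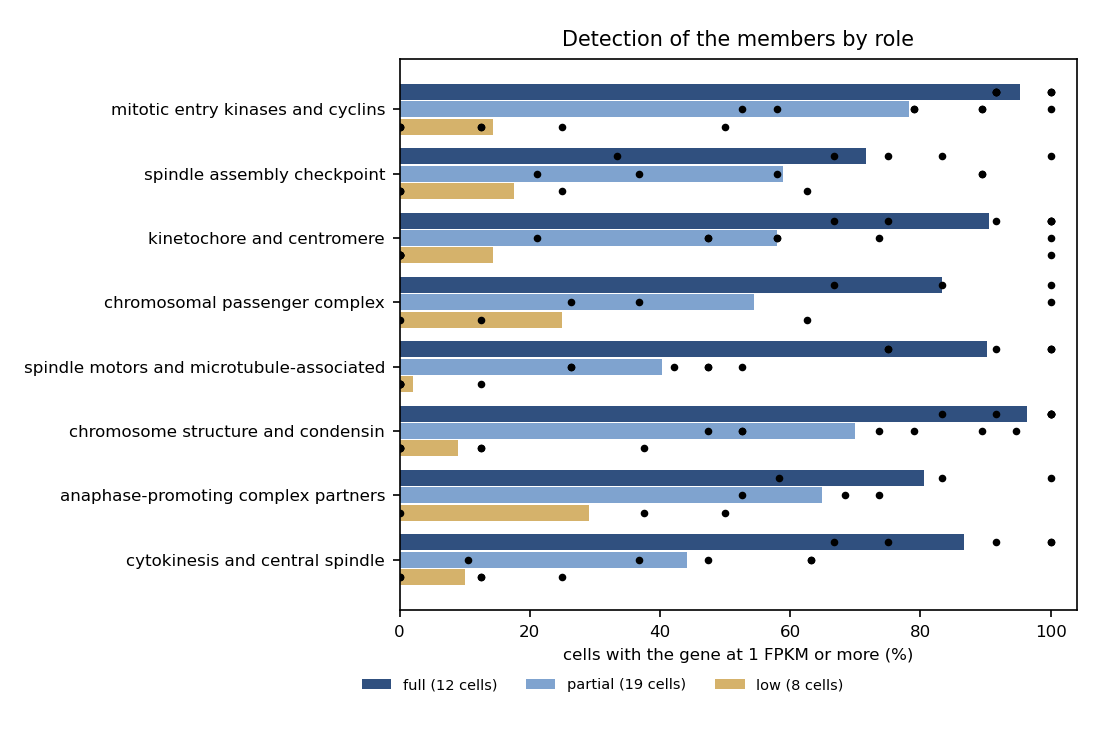
Share of cells with a member at 1 FPKM or more, by role, in full, partial and low cells. Bars give the mean over the members of a role and points the single members. The classes were set by these members, so the order of the bars follows from the rule. Spindle motors drop from 90.3% to 40.4% and 2.08%, whereas entry kinases and cyclins are still at 78.2% in partial cells.

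Across members, then, low cells lacked most of the module and full cells had most of it, as the rule requires. Of the 43, 20 were detected in every full cell and 25 in no low cell. In mean log2 value 42 members were at least 1 higher in full than in low cells, where 34.3% of all genes in use were, and 35 were at least 1 higher in full than in partial cells, where 11.3% of all genes were. Between partial and low cells 37 were at least 1 higher (29.9% of all genes). No member (0) was at least 1 lower in full than in low cells (5.72% of all genes), in full than in partial cells (5.31%) or in partial than in low cells (7.17%). The members themselves set these classes, so nothing can be read from these counts.

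Between the clusters, 39 members had a higher mean log2 value in Cluster 1 and 4 a lower one (Pttg1, Anln, Aurkb and Incenp). Over all genes in use the quartiles of this difference were -0.29 and 0.67 around a median of 0.20. Most genes were thus also higher in Cluster 1, and their share was not counted. At least 1 higher in Cluster 1 were 23 of the 43 members, where 14.9% of the 9676 genes in use were, and at least 1 lower were 0 members, where 4.89% of genes were. The median difference was 1.01 over the members and 0.20 over all genes in use. The score was 3.59 ± 1.23 in Cluster 1 (n = 22) and 2.54 ± 1.797 in Cluster 2 (n = 15), and this difference of 1.05 was smaller than the pooled SD of 1.48. By role, the entry kinases and cyclins (6 of 7 members at least 1 higher, median 1.82) and the chromosome structure genes (6 of 7, median 1.33) differed most, and the spindle motors (1 of 6, median 0.58) and the passenger complex (1 of 3, median -0.16) least. By log2 ratio of mean FPKM (with 1 FPKM added to each mean), which weights the highest cells, 9 members were at least 1 higher, where 21.9% of all genes were, and 0 at least 1 lower, where 18.8% were. On that scale the count of higher members was no larger than the background, and the median was 0.63 over the members and 0.07 over all genes.

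**Figure D4:**
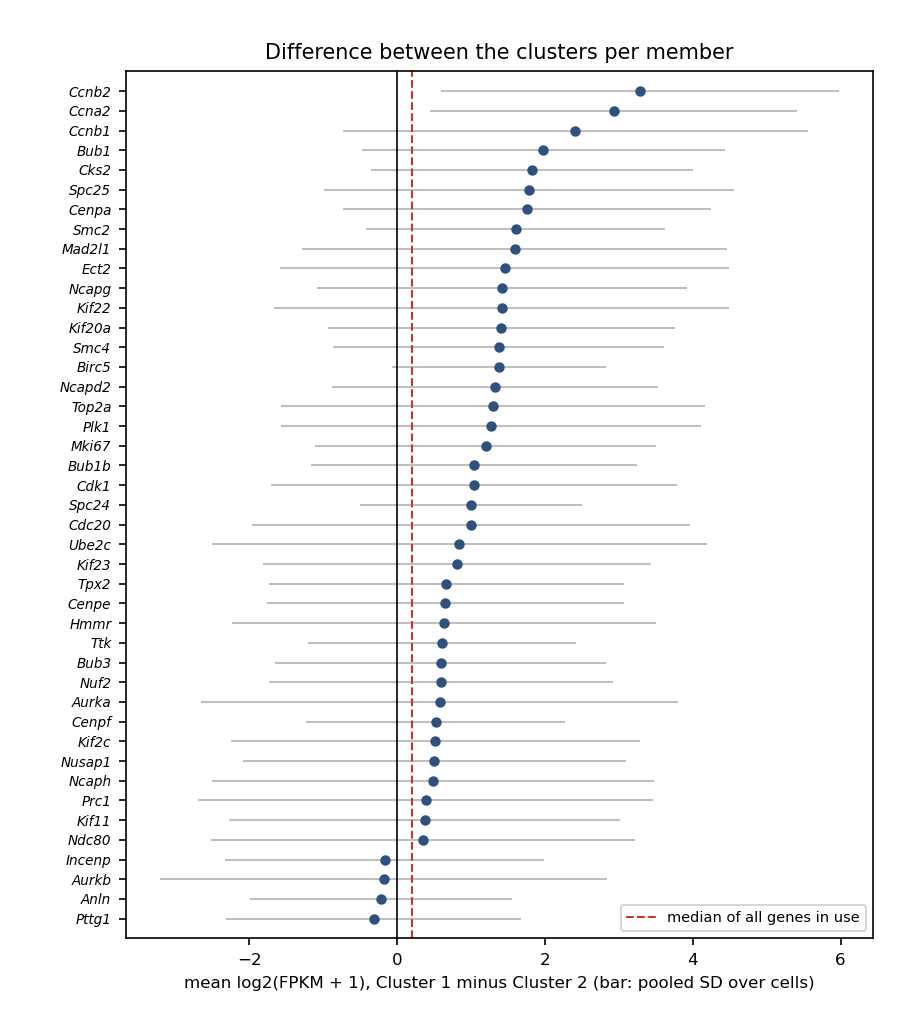
Difference in mean log2(FPKM + 1) between Cluster 1 and Cluster 2 for each member (points), with the pooled SD over cells (bars) and the median of all genes in use (dashed red line, 0.20). Of the 43 points, 39 lie above 0, as does the median of all genes, and only the bars of Ccnb2 and Ccna2 stay clear of 0.

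Within programs the gap in score between the clusters was smaller, but so were the SDs. The programs were cut from the members that make the score, so nothing can be read from the smaller gap. Among full cells the score was 5.09 ± 0.58 in Cluster 1 (n = 7) and 4.65 ± 0.32 in Cluster 2 (n = 5), and among partial cells 2.89 ± 0.68 (n = 15) and 2.72 ± 0.50 (n = 4). Restricted to full cells, 27 of 43 members were higher in Cluster 1, with a median difference of 0.40. The median over all genes was 0.15, so most genes were also higher there, and their share was not counted. Both sets were cut from the same members and are given as a description. The difference between clusters also moved with genes detected, which numbered 3287 to 5708 (median 4663.5) in Cluster 1 and 2988 to 5779 (median 4138) in Cluster 2. When cells were paired within 10% on genes detected, taking the lowest cells in turn, 10 pairs gave a score difference of -0.10 and a median of -0.19. In these pairs 6 members were at least 1 higher in Cluster 1 (12.8% of all genes) and 7 at least 1 lower (13.8%), shares near those of all genes. Pairs chosen for the smallest overall difference, added after these values were seen, gave 12 pairs with a score difference of 0.36 and a median of 0.41. In these, 7 members were at least 1 higher (14.2% of all genes) and 1 at least 1 lower (9.61%), so the count of higher members was again near the background. The direction between the clusters therefore depended on which cells were paired. The first pairing kept 1 full, 9 partial and 0 low cells of Cluster 1 beside 4 full, 4 partial and 2 low cells of Cluster 2, and the second kept 3, 9 and 0 beside 5, 4 and 3.

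The members varied together across cells. Of the 903 pairs of members, 884 had a positive rank correlation over the 39 cells and 230 had one above 0.5, with a median of 0.40. In percent, 97.9% of member pairs were above 0 and 25.5% above 0.5, beside 57% and 0.23% of all pairs of the 9804 genes in use. All pairs share the same libraries and their gene detection. The highest were Kif11 with Kif23 (rho = 0.75), Nusap1 with Kif23 (0.74) and Kif11 with Nusap1 (0.73), a motor that pushes spindle poles apart, a central spindle motor and a microtubule bundler. The lowest was Spc24 with Pttg1 (-0.22). Correlation with the mean of the other members ranged from 0.11 for Pttg1 to 0.78 for Ccnb1 (median 0.62), and Mki67 reached 0.77.

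The genes outside the module that followed the score most closely included tubulin genes and further mitosis genes. Of the 9804 genes ranked over the 39 cells (median rho 0.12), 57 came from a list of 62 other mitosis genes. The first 50 held 11 of these 57. They also held 26 members, from which nothing can be read, because each member is part of the score. The 10 highest outside the members were Tuba1c (0.76), Tubb4b (0.74), Sgol1 (0.73), Tbl1x (0.70), Gm6682 (0.68), Kif15, Tacc3 (0.68 each), Acpp (0.65), Trim59 and Cdca2 (0.64 each). Tuba1c and Tubb4b encode building blocks of microtubules, and Sgol1 guards the cohesion of centromeres. Tuba1c was at 411 to 1188 FPKM in full cells, 46.1 to 648 FPKM in partial cells and 2.33 to 312 FPKM in low cells, and was thus detected in all 39 cells. It was picked for following the score from which the classes were cut, so its order over the classes follows from that choice. Gm6682 is described in the table as a pseudogene of Tuba1c, and reads may be shared between them. Of the other mitosis genes in use, all 57 of 57 correlated positively with the score (median 0.45). The median over all genes ranked was 0.12, so most genes were also positive, and their share was not counted. At least 1 higher in full than in partial cells were 33 of 57 (1 lower), against 11.3% of all genes. Between the clusters 13 of 57 were at least 1 higher in Cluster 1 (14.9% of all genes), 1 was at least 1 lower (4.89%), and the median was 0.45 (0.20 over all genes). The lower gene was Psrc1, which is also in the ISC signature that defined the clusters. The lowest correlations in that list were those of Cenpm (0.13) and Fbxo5 (0.15), the latter an inhibitor of the anaphase-promoting complex that was detected in 3 of 12 full and 11 of 19 partial cells.

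The DNA replication genes, which are used in S phase before mitosis, divided the cells in another way. Their score, the mean log2(FPKM + 1) of 48 genes, was 2.19 to 4.48 in full cells (median 3.80), 2.75 to 5.36 in partial cells (median 4.43) and 0.47 to 1.32 in low cells (median 0.68). The partial cells thus reached the highest replication scores, and the low cells lay below all others in both programs. Between full and partial cells 15 of 48 replication genes were at least 1 lower in full cells (5.31% of all genes) and 5 at least 1 higher (11.3%). Ung, which removes uracil from DNA, was detected in 1 of 12 full and 12 of 19 partial cells. Of the 48 replication genes, 45 correlated positively with the mitosis score (median rho 0.29). The median over all genes was 0.12, so most genes were also positive. Highest of the 48 were Prim1 of the primase and Tk1, thymidine kinase (0.62 and 0.55). Singled out after their values were seen, the E cyclins of the G1/S transition were detected in 1 of 12 full, 12 of 19 partial and 0 of 8 low cells (Ccne1) and in 1, 15 and 0 (Ccne2).

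The relation of both scores is given by cluster as a description. Spearman rho was 0.41 over the 39 cells, -0.12 over the 22 cells of Cluster 1 and 0.66 over the 15 cells of Cluster 2. Cluster 2 includes 6 low cells at the bottom of both scores, and Cluster 1 has none. These values therefore cannot show whether the relation itself differed between the clusters. Between the clusters 35 of 48 replication genes were at least 1 higher in Cluster 1 (median 1.82), beside 23 of 43 for the mitosis genes (median 1.01) and 14.9% of all genes. Cells 29, 63 and 94 of Cluster 2 combined a full mitotic program with replication scores of 2.19, 2.75 and 2.78, the lowest of the full cells.

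**Figure D5:**
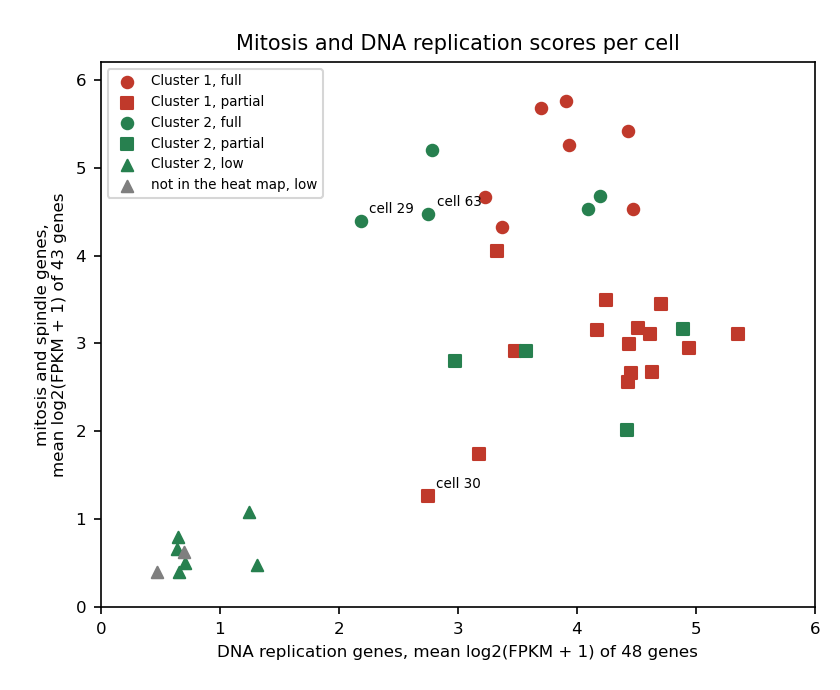
Mitosis score against DNA replication score for each of the 39 cells, both as mean log2(FPKM + 1), colored by cluster and shaped by program. The low cells sit together, at no more than 1.32 on the replication axis and 1.08 on the mitosis axis, and among the others the full cells lie at 2.19 to 4.48 on the replication axis and the partial cells at 2.75 to 5.36.

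Cdkn1a, the p53 target that inhibits cyclin-dependent kinases, was not restricted to cells without a mitotic program. It was at 0 to 384 FPKM in full cells (median 33.1, detected in 9 of 12), at 0 to 234 FPKM in partial cells (median 16.2, 12 of 19) and at 6.55 to 322 FPKM in low cells (median 84.3, 8 of 8). The groups overlapped, and the highest values of all were in cell 94 (384 FPKM) and cell 51 (326 FPKM), both with 39 members detected. Its Spearman rho with the score was -0.21 over the 39 cells, -0.17 over Cluster 1 and 0.27 over Cluster 2 (Pearson's r -0.27, -0.18 and 0.04), all weak. By cluster it was at 0 to 213 FPKM in Cluster 1 (median 5.05) and at 1.34 to 384 FPKM in Cluster 2 (median 78.04). Of 16 p53 target genes in use, 1 (Aen) was at least 1 higher in Cluster 1 (14.9% of all genes) and 8 were at least 1 lower (4.89% of all genes). Among 11 regulators of the G2 checkpoint and of Cdk1, 3 were at least 1 higher in full than in partial cells (11.3% of all genes) and 2 were at least 1 lower (5.31%), with Cdc25b, a phosphatase that activates Cdk1, detected in 7 of 12 full and 2 of 19 partial cells.

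Olfm4, a marker of the crypt base stem cell and part of the ISC signature behind the clusters, did not follow the mitosis genes. It was at 0.57 to 2250 FPKM in full cells (median 428), at 0.32 to 3721 FPKM in partial cells (median 1214) and at 0.18 to 2353 FPKM in low cells (median 1.68). Its correlation with the score was 0.07 over the 39 cells, -0.46 over Cluster 1 and -0.03 over Cluster 2. Cells 2 and 29 had full programs with Olfm4 at 0.57 and 1.03 FPKM, and cell 96, with 3 members detected, had 2353 FPKM.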

How the data were processed

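FPKM values and estimated counts for 25219 genes were deposited by the authors for 39 single cells. Per the labels and methods, sorted cells were captured on the Fluidigm C1, with sites inspected by microscope, and libraries were made with SMARTer and Nextera XT kits and processed by Takara Bio. The submitters' processing notes name bcl2fastq 1.8.4, TopHat2 2.0.14 and mm10 (GRCm38). The counting program is not given in the sources used here. The authors' deposited FPKM values were used as they are, and the deposited estimated counts gave depth and, rounded, a thinning to 390000 counts. These libraries carry no molecular identifiers, so counts are not numbers of molecules, and transcripts lost before amplification appear as 0.

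Clusters were read from the labels printed with the authors' heat map, and grouping on the 98 ISC genes by complete linkage placed 37 of 37 cells as printed. Differences are of mean log2(FPKM + 1). Genes in use averaged 1 FPKM or more, which left 9676 genes for the 37 clustered cells and 9804 for all 39. A difference of 1 stood in for a test, since cells are not replicates. The difference script was tested on simulated data. The members, lists and markers were chosen with earlier results of these data known. Genes named singly were 12 core members, the highest and lowest mean of each role, the 10 outside genes that best followed the score, Cdkn1a, Olfm4 and the extremes of each list. Exceptions are named as such or given by detection counts. Doublets were not called. Promoters came from RefSeq, GRCm38.p6. Intervals are exact Clopper-Pearson. Scripts ran in Python 3.11.15 with matplotlib 3.10.9, scipy 1.17.1, pandas 2.3.3 and numpy 2.4.6.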

Additional observations from a re-analysis of the deposited data

How the results depend on the processing

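Of 57 alternative values, 2 reversed, 10 moved and 45 kept their direction and stayed within 1 SD over cells, the binomial interval or, for counts, 1.5 times, which is reached where 12 full cells became 8. That margin is wide, and the score difference of 0.3637 and median of 0.4123 below fall within it. The number of full cells (12) became 22 when any value above 0 FPKM counted as detected, 8 with detection at 5 FPKM, and 19 with limits of 2/3 and 1/3 of the members, where the partial cells (19) became 11. The low cells (8) became 0 at any value above 0 FPKM and 4 after thinning, where 1 read counted as detection. The share of full cells in Cluster 1 (31.8%) became 68.2% and 59.1% under the first and the last of these, and that in Cluster 2 (33.3%) became 46.7% and 40%. The score difference (1.05) and the median difference (1.01) reversed to -0.1001 and -0.1924 with cells paired on genes detected, where 6 members in place of 23 were at least 1 higher (12.8% of all genes) and 7 in place of 0 at least 1 lower (13.8%). The pairs with the smallest total difference, chosen after seeing the data, kept the direction, at 0.3637 and 0.4123, with 7 members higher (14.2% of all genes). By log2 ratio of mean FPKM 9 members were at least 1 higher (21.9% of all genes), with a median of 0.63. The pairings use fewer cells, and the cause was not tested. Leaving out each cell in turn gave score differences of 0.896 to 1.24, medians of 0.858 to 1.17 and 19 to 24 members. Leaving out cell 43, the cell of the clusters with fewest counts, or cell 63 changed no direction. No paired analysis was possible because the labels give 1 group and no replicate shared between groups, and the pairs above are only cells of similar gene number. The data count as 1 biological sample and hold no unirradiated cells, so differences between animals or from irradiation cannot be seen. Detection of genes near 1 FPKM is limited by loss before amplification.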
